A study of Glycine max with 6 samples.

Results

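The Rhg1 block and Rhg4 are the loci best known for resistance of soybean (Glycine max) to the soybean cyst nematode, a parasite that feeds inside the root. Their gene models were followed here in hairy roots carrying constructs made to over-express or silence the regulator GmPHD6. The 4 gene models were taken by their deposited IDs out of 56044 in the table. Glyma.18G022400 is the amino acid transporter of the Rhg1 block, Glyma.18G022500 its alpha-SNAP and Glyma.18G022700 its WI12 (wound-inducible protein) gene. Glyma.08G108900 is the serine hydroxymethyltransferase (SHMT) of Rhg4. Each had an accepted estimate in every group, and each entered the comparisons.

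Hairy roots are transformed roots that grow from a stem wounded and infected with Agrobacterium rhizogenes. All roots came from soybean KF1 seedlings kept at 28 °C and lit for 16 h a day, and were taken when 2 to 10 cm long. One group carried a GmPHD6 over-expression construct (GmPHD6-OE), another an RNAi construct, and the control group is labelled K599, after the bacterial strain used for every injection, with the genotype given as wild type. There were 2 libraries per group, 6 in all. The labels name neither the promoters of the constructs nor whether roots were pooled, and the sources used here do not give the Rhg1 and Rhg4 haplotypes of KF1.

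In cells, alpha-SNAP works with the ATPase NSF to take apart the SNARE complexes left after vesicles have fused with a membrane. SHMT interconverts serine and glycine and in doing so charges folate with a carbon unit for nucleotide and methionine synthesis. In resistant soybeans the Rhg1 block is repeated in tandem, and Rhg4 acts through altered forms of the SHMT enzyme. The transporter, alpha-SNAP and WI12 genes were identified together as contributors to Rhg1 resistance, although they encode unrelated proteins. No nematode is mentioned in the labels, so the values describe roots without a stated infection.

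The authors deposited 1 FPKM value per gene and group (a fragment count corrected for transcript length and sequencing depth), together with confidence bounds below and above it. That value was read as both libraries of a group combined, and no replicate error or p-value can be given. Whether the bounds include any spread between libraries is not stated. Columns summed to 833516 FPKM for over-expression, 753999 for RNAi and 676881 for control, and 31065 to 31320 genes reached 1 FPKM in each. The column headed G6 was read as GmPHD6-OE, because the other columns bear the names of the RNAi and K599 groups. The levels of GmPHD6 itself and of tissue marker genes were not analysed here, because no table used here links gene names to the deposited IDs.

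The 4 genes were among the more abundant transcripts of these roots. In the control, SHMT stood at 213 FPKM (bounds 208 to 218), alpha-SNAP at 206 FPKM (200.3 to 212), WI12 at 188 FPKM (176 to 201) and the transporter at 124 FPKM (120.0 to 128). Alpha-SNAP and SHMT have close relatives in soybean, and how fragments matching several genes were divided is not given, so their levels are uncertain to that extent. These levels placed SHMT at rank 295, alpha-SNAP at 308, WI12 at 363 and the transporter at 677 of the 33291 genes with accepted estimates and at least 1 FPKM in some column. FPKM is scaled to transcript length, so these levels can be set side by side. The transporter's bounds lay below those of the other three, while neighbours in the order above it overlapped, SHMT with alpha-SNAP and alpha-SNAP with WI12.

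**Figure D1:**
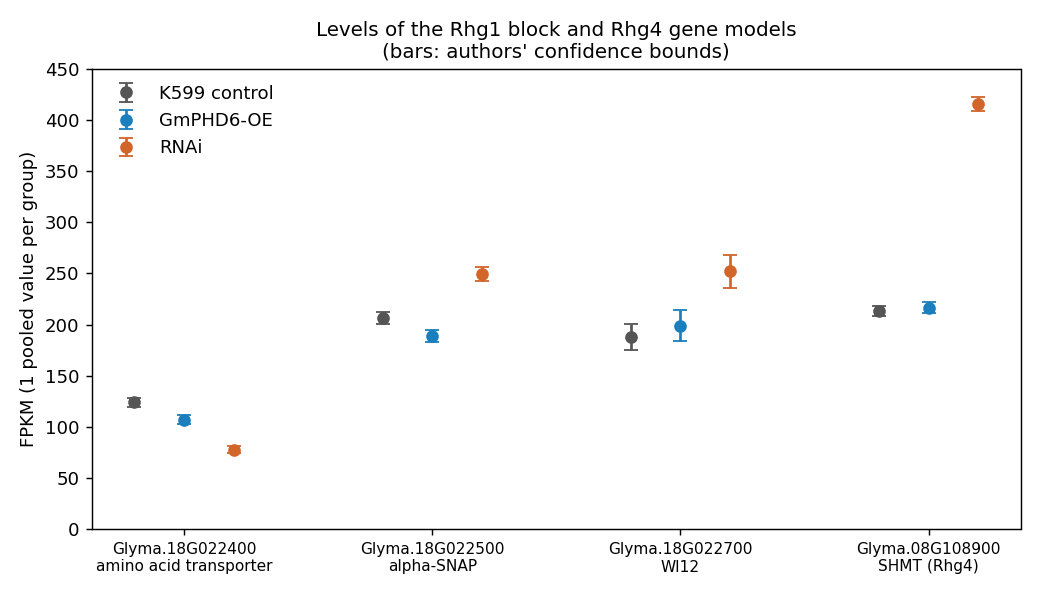
FPKM of the 4 gene models (vertical axis, starting at 0) in the control, over-expression and RNAi columns. Points are the authors' pooled values and bars their confidence bounds. SHMT stood at 416 FPKM with RNAi against 213 FPKM in control, and the transporter was lowest with RNAi at 78.0 FPKM.

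The amino acid transporter Glyma.18G022400 lies on chromosome 18 from 1636621 to 1639590 (coordinates as deposited, in the Wm82.a2.v1 annotation named in the gene IDs). Its product is predicted to carry amino acids across a membrane. Its level was 107 FPKM with over-expression (bounds 103 to 111), 78.0 FPKM with RNAi (74.6 to 81.4) and 124 FPKM in control (120.0 to 128). Control was highest and RNAi lowest, and no pair of bounds overlapped. In difference of log2(FPKM + 1), which is used throughout for differences, over-expression was -0.21 from control (± 0.07, the authors' bounds of both values combined) and RNAi was -0.66 (± 0.08). With columns rescaled to the same sum the former was -0.50. The control level was 1.59 times that of RNAi. In whole roots, fewer cells that express a gene and less of its RNA per cell cannot be told apart.

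Alpha-SNAP, Glyma.18G022500, spans 1641007 to 1645711 on the same chromosome. Its level was 189 FPKM with over-expression (183 to 195), 249 FPKM with RNAi (242 to 256) and 206 FPKM in control (200.3 to 212). RNAi was highest and over-expression lowest, again with no overlap of bounds. The log2 difference from control was -0.13 (± 0.06) for over-expression and 0.27 (± 0.06) for RNAi. The FPKM with RNAi was 1.21 times that in control, and with over-expression 0.916 times. With columns rescaled to the same sum the log2 differences were -0.42 and 0.12.

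WI12, Glyma.18G022700, spans 1651214 to 1653524 and is named after a wound-inducible protein. Its level was 199 FPKM with over-expression (184 to 214), 252 FPKM with RNAi (236 to 268) and 188 FPKM in control (176 to 201). Over-expression and control overlapped, and RNAi lay above both. The log2 difference from control was 0.42 (± 0.13) for RNAi, and 0.26 with columns rescaled to the same sum. For over-expression it was 0.08 (± 0.14), within the bounds, and it took the other sign, at -0.22, when the columns were rescaled to the same sum. WI12 had the widest bounds of the 4 genes, 6.34% to 7.49% on either side of the value, against 1.68% to 4.36% for the other three.

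Rhg4, the SHMT gene Glyma.08G108900, lies on chromosome 8 from 8358421 to 8363343. Its level was 216 FPKM with over-expression (211 to 222), 416 FPKM with RNAi (409 to 423) and 213 FPKM in control (208 to 218). Over-expression and control overlapped, and RNAi was 1.95 times control. The log2 difference from control was 0.96 (± 0.04) for RNAi, the largest in size among the 4 genes as deposited. That order was not kept with columns rescaled to the same sum, where SHMT was at 0.805 and the transporter at -0.814. For over-expression the SHMT difference was 0.02 (± 0.05). Its sign changed when columns were rescaled to the same sum (-0.28) or by their median ratio (-0.01). With RNAi the gene moved from rank 295 in the control column to rank 163, and WI12 from 363 to 337. Alpha-SNAP moved down from 308 to 348, although its FPKM was higher, and the transporter from 677 to 1695.

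None of the 4 genes passed the fold rule in any of the comparisons. The rule asks for a log2 difference of at least 1 and bounds that do not overlap. It is not a test across replicates. Over all genes with a fold, 2.22% passed it for over-expression against control, 11.2% for RNAi against control and 11.9% between the constructs. Among genes with a mean of at least 50 FPKM these shares were 4.23%, 18.6% and 21.4%. SHMT missed it narrowly, at 0.96 for RNAi against control and -0.94 (± 0.04) for over-expression against RNAi. With columns rescaled to the same sum the latter became -1.08, which is past the rule, while the former became 0.81. Rescaled by median ratio they were 0.90 and -0.91, both further from the rule.

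Bounds alone separated more. For over-expression against control the bounds of the transporter and alpha-SNAP did not overlap, both lower, that is 2 of 4 genes beside 22.0% of all genes (10.0% lower) and 58.2% of the 2481 genes with a mean of at least 50 FPKM. For RNAi against control they did not overlap for 4 of 4, with 3 higher and 1 lower, beside 43.0% of all genes (24.3% higher and 18.6% lower) and 81.0% of the 2482 genes of at least 50 FPKM. Between the constructs they did not overlap for 4 of 4, with over-expression above RNAi for the transporter and below it for the other three, beside 41.5% of all genes (19.5% above and 22.0% below) and 77.6% of those of at least 50 FPKM. Separated bounds were thus common among genes this abundant.

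Differences between the constructs ran from -0.94 for SHMT to 0.45 (± 0.08) for the transporter. Alpha-SNAP stood at -0.40 (± 0.06) and WI12 at -0.34 (± 0.14) for over-expression against RNAi. The median over the 4 genes was -0.05 for over-expression against control, 0.35 for RNAi against control and -0.37 between the constructs. Over all genes these medians were 0.02, 0.05 and -0.02, and over genes with a mean of at least 50 FPKM they were 0.07, 0.25 and -0.15. The 4 genes differ in direction, so their median does not describe a shared shift. The comparisons share their columns, so they are not independent of each other.

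Genes of high level as a class stood higher with RNAi. Among those with a mean of at least 50 FPKM the median RNAi difference from control was 0.25 with an SD across genes of 0.95, against 0.07 and 0.60 for over-expression. That mean includes the RNAi column, so the offset is partly built in. Alpha-SNAP, at 0.27, lay close to this median: 47.7% of these genes were as far above control or further. The share was 34.6% for WI12 and 12.97% for SHMT. On the lower side, 10.3% of them were as far below control with RNAi as the transporter.

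**Figure D2:**
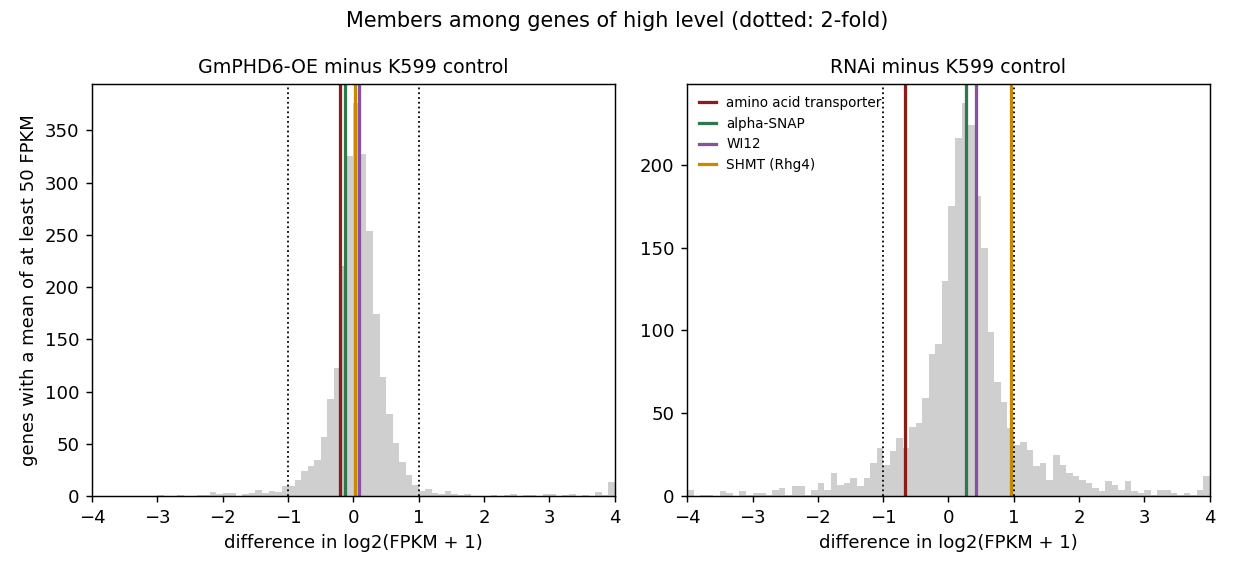
Histograms of the difference in log2(FPKM + 1) from control for genes with a mean of at least 50 FPKM, in bins of equal width (the end bins hold all genes beyond 4), for over-expression (left) and RNAi (right). Coloured lines mark the 4 gene models and dotted lines the 2-fold limits. With RNAi the transporter sits at -0.66 and SHMT at 0.96, while with over-expression the 4 lie between -0.21 and 0.08.

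Within the Rhg1 block the members did not keep their proportions. The ratio of alpha-SNAP to transporter FPKM was 1.76 (± 0.09 from the bounds) with over-expression and 1.66 (± 0.07) in control, and 3.20 (± 0.17) with RNAi. The ratio of WI12 to transporter was 1.86 (± 0.16), 1.52 (± 0.11) and 3.23 (± 0.25) in the same order. A ratio within a column does not depend on how the column was scaled. With RNAi both ratios lay above those of the other columns beyond their bounds. Ratios between other pairs of genes were not computed, so how common such shifts are is not known. Single genes with a mean of at least 50 FPKM often moved by RNAi against control. Bounds were apart for 81.0% of them, and the SD of their log2 differences was 0.95.

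WI12 and alpha-SNAP, by contrast, lay close together in each column. Their ratio of FPKM, WI12 over alpha-SNAP, was 1.05 (± 0.09) with over-expression, 1.01 (± 0.07) with RNAi and 0.912 (± 0.07) in control. The 3 block members together summed to 495 FPKM with over-expression, 579 FPKM with RNAi and 518 FPKM in control. The transporter's share of that sum was 21.7%, 13.5% and 23.9%.

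**Figure D3:**
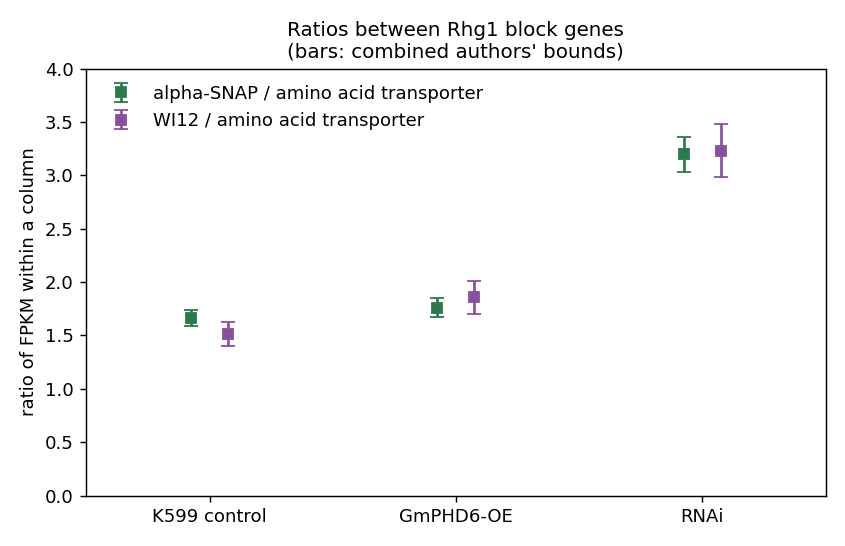
Ratio of FPKM within each column (vertical axis, starting at 0) for alpha-SNAP and WI12 over the amino acid transporter of the same block. Bars combine the authors' bounds of both values. The ratios are 3.20 and 3.23 with RNAi, against 1.66 and 1.52 in control.

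Across the loci, SHMT and alpha-SNAP stood at a ratio of 1.03 (± 0.04) in control and 1.15 (± 0.05) with over-expression. The ratio was 1.67 (± 0.05) with RNAi, where the bounds of SHMT lay above those of every block gene. In the resistance known as Peking-type, the SHMT of Rhg4 and the alpha-SNAP of Rhg1 act together.

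Only 1 gene model lies between the members of the block. Glyma.18G022600, from 1647501 to 1649169, sits between alpha-SNAP and WI12. It read 0.882 FPKM with over-expression (0.474 to 1.29), 1.66 FPKM with RNAi (1.12 to 2.21) and 0.602 FPKM in control (0.296 to 0.908). The high expression of the block was therefore held by its 3 members. Its RNAi bounds lay above those of control, with a log2 difference of 0.73 (± 0.41), and it did not pass the fold rule.

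In the RefSeq table of assembly Glycine_max_v4.0 the block has the same order of names: a gene with the synonym Rhg1-GmAAT, SNAP18, an unnamed locus and WI12. The same table calls the SHMT gene of chromosome 8 by the synonym rhg4. Its symbols RHG1 and RHG4 belong to other genes, receptor-like kinases that were earlier candidates at these loci. That table shares no ID with the deposited one (0 of 56044 matched), so it served for names and order only.

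The gene models on either side of the block were expressed at far lower level near it. The nearest on the left, Glyma.18G022300, read 7.35 FPKM with over-expression, 8.36 FPKM with RNAi and 8.24 FPKM in control. The nearest on the right, Glyma.18G022800, read 7.06 FPKM, 6.34 FPKM and 5.60 FPKM. Both are named as the neighbours in position, and their bounds overlapped across the columns.

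Of the 10 gene models flanking the block, 5 on each side, 7 passed the filter on level and 6 had a fold against control. With RNAi 1 passed the fold rule, higher, and with over-expression 0, beside 5.56% and 0.847% of all genes higher. The one that passed was Glyma.18G023100, at 169 FPKM with RNAi (163 to 175) against 21.1 FPKM in control (19.2 to 23.1), which is 2.94 (± 0.14) on the log2 scale. It shares its deposited locus with Glyma.18G023200, so the split of fragments between them is uncertain. The median RNAi difference of the 6 was 0.02. Glyma.18G022000, listed at 0 in control, got no fold, and read 10.9 FPKM with RNAi and 0.527 FPKM with over-expression.

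Around Rhg4 most gene models with a fold were higher with RNAi. Of its 10 flanking gene models 8 passed the filter, and 5 of these passed the fold rule for RNAi against control, each higher, beside 5.56% of all genes, with a median of 1.15 over the 8. For over-expression 1 of the 8 passed, lower, beside 1.37% of all genes, and the median was 0.04. Rhg4 was chosen for description with earlier results of these data known, and genes of a neighbourhood are not replicates of a condition. The 5 that passed with RNAi include gene models that lie side by side to the right of SHMT. How fragments matching several genes were divided is not given, so the 5 may not be separate changes.

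The largest RNAi differences among the genes flanking Rhg4 were those of Glyma.08G109200 and Glyma.08G109400, to the right of SHMT. Glyma.08G109200 read 20.6 FPKM with RNAi (18.7 to 22.5) against 3.91 FPKM in control (3.15 to 4.67), which is 2.14 (± 0.26) on the log2 scale. Glyma.08G109400 read 48.1 FPKM with RNAi (46.3 to 49.9) against 13.9 FPKM in control (12.995 to 14.8), a difference of 1.72 (± 0.10). With over-expression Glyma.08G109400 was at 5.71 FPKM (5.06 to 6.36), -1.15 (± 0.17) from control and past the rule. In the same comparison SHMT stood at 0.02.

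The immediate neighbours, named after their values were seen, went different ways. Glyma.08G108800, left of SHMT, read 1204 FPKM with RNAi (1193 to 1216), 491 FPKM in control (484 to 498) and 608 FPKM with over-expression (598.9 to 616). Its RNAi difference was 1.29 (± 0.02). Glyma.08G109000, right of SHMT, read 19.3 FPKM with RNAi (17.7 to 20.8) and 25.2 FPKM in control (24.0 to 26.5), a difference of -0.37 (± 0.13). SHMT thus stood between a neighbour that was higher with RNAi and one that was lower. In the RefSeq order the SHMT gene is followed by SUB1 and, further on, by a run of chalcone synthase genes, CHS5, CHS3, CHS1 and CHS9, enzymes that open flavonoid synthesis. Which deposited IDs carry those names was not analysed here.

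**Figure D4:**
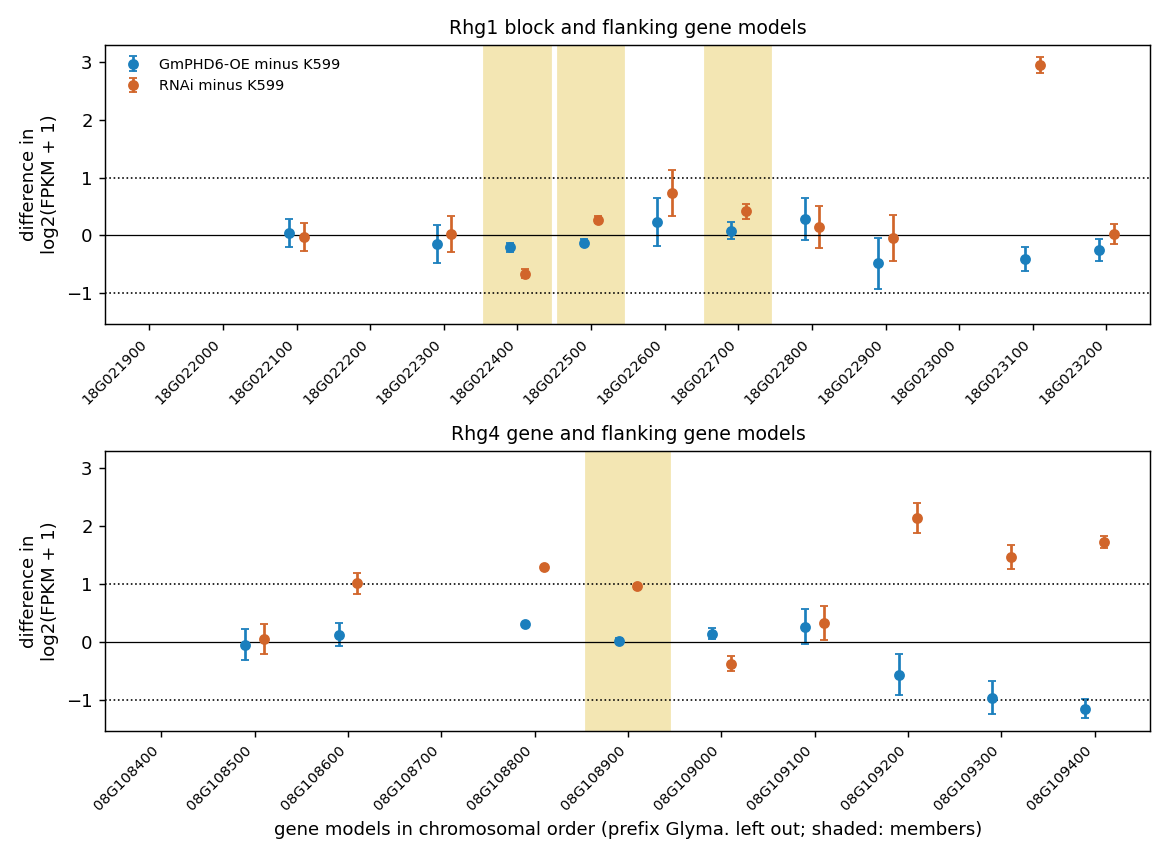
Difference in log2(FPKM + 1) from control for gene models in chromosomal order around the Rhg1 block (top) and Rhg4 (bottom), for over-expression (blue) and RNAi (orange). Bars combine the authors' bounds, shading marks the 4 members, dotted lines are the 2-fold limits, and gene models without a fold or under the filter have no point. Around Rhg4 5 flanking genes stand above the upper limit with RNAi, against 1 around the block.

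Genes with the most similar levels were found by Euclidean distance over the log2(FPKM + 1) of the 3 columns. With 3 points many genes can look alike, and the likeness is a description only. SHMT was nearest to Glyma.18G041100, at a distance of 0.03, which read 219 FPKM with over-expression, 419.9 FPKM with RNAi and 217 FPKM in control, and next to Glyma.19G220200, at 0.12. WI12 was nearest to Glyma.10G006500, at 0.06, and to Glyma.10G277900, at 0.08.

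Alpha-SNAP was nearest to the same Glyma.10G277900, at 0.13, and then to Glyma.19G257100, at 0.19. Its distance to WI12 was 0.15, between those of its own nearest genes, but further than the nearest genes of WI12. The transporter was nearest to Glyma.10G069000, at 0.15, and Glyma.01G006200, at 0.20. It stood 1.99 from both alpha-SNAP and WI12 and 2.71 from SHMT. Within a distance of 0.25 lay 4 genes for the transporter, 18 for alpha-SNAP, 20 for WI12 and 5 for SHMT.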

How the data were processed

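RNA-seq libraries of 6 hairy root samples (2 per group) were available as FPKM per gene and group, combined by the authors before deposit, per the file headers, with lower and upper bounds of each FPKM. The submitters' processing notes name TopHat, a splice-aware aligner. Not given in the sources used here are its version, how FPKM were estimated, what confidence the bounds stand for, whether strand was used, how fragments matching several places were treated, and whether starts count from 0 or 1.

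Genes entered if every column had an accepted estimate and any column reached 1 FPKM (33291 of 56044). Differences are log2(FPKM + 1), and a gene at 0 in a compared column got no fold. Error terms combine the half-widths of both values' bounds, and whether these include spread between libraries is not stated. The fold rule is 2-fold with bounds apart, and was tried on simulated data. The simulated spread came from the bounds alone, with none between libraries, so it gives no error rate for these data. Python 3.11.15 and pandas 2.3.3 were used. Alternatives were another pseudocount, rescaled columns, other filters on level and a rule without bounds. The 4-fold rule, the group of at least 50 FPKM and the use of bounds alone were chosen after seeing the data.

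Named genes were the members, the gene model between them, 5 flanking gene models on either side (at most 2 named per direction, besides those named by position) and the 2 nearest in level. Lists of related genes and tissue markers by description were not used, because no table here pairs names with the deposited IDs. The members and lists were chosen with earlier results of these data known.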

Additional observations from a re-analysis of the deposited data

How the results depend on the processing

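With columns rescaled to the same sum, the median of all genes moved from 0.02 to -0.23 for over-expression against control, from 0.05 to -0.08 for RNAi against control and from -0.02 to -0.13 between the constructs. The log2 differences of the transporter, alpha-SNAP, WI12 and SHMT then became -0.50, -0.42, -0.22 and -0.28 for over-expression against control, 0.81 for SHMT, 0.26 for WI12, 0.12 for alpha-SNAP and -0.81 for the transporter with RNAi against control, and 0.31, -0.54, -0.48 and -1.08 between the constructs. Relative to the median of all genes, WI12 and SHMT stood at 0.01 and -0.05 for over-expression against control. Rescaling by median ratio moved RNAi against control to 0.21 for alpha-SNAP and 0.90 for SHMT. Of 36 recomputed differences 22 moved by less than the bounds, and with log2(FPKM + 0.1) none of the 12 moved further. The fold rule counts of 732 (over-expression against control), 3683 (RNAi against control) and 3916 (between constructs) became 125, 827 and 996 at 4-fold by construction, and the first 1257 with log2(FPKM + 0.1). The share of higher calls, 38.1%, 49.9% and 45.7%, was 16.3%, 39.7% and 36.4% at the same sum. At 4-fold it was 60.0%, 55.5% and 36.45%, so for over-expression against control most calls were then higher. No paired analysis was possible because the libraries of a group share 1 column, and for the same reason no library could be left out.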
